A study of Mus musculus with 7 samples.

Results

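Mt1, Mt2 and Mt3 encode metallothioneins, and their unique molecular identifier (UMI) counts were followed along the vessel tree of the mouse brain in 7 single-cell libraries. The 3 genes were taken by symbol and are 3 of the 32285 genes listed for every library. Another family member, Mt4, had 0 UMIs in all libraries. The cells were microvessel cells of untreated C57Bl6 wild type mice, captured with CD31-coated magnetic beads after collagenase digestion of 1 hemisphere without cerebellum, brain stem and olfactory bulbs. The mice were 12 months old in 3 of the libraries and 3 months old in the other 4, and no agent, transgene or deletion is named for either group. The labels number the libraries as replicates without saying that each is a separate mouse, so p-values by age measure the spread between these libraries. Mt1 and Mt2 were chosen by their levels in these data, since their low level in arterial cells was already known; Mt3 was added as the brain form of the family. Their levels between cell classes are therefore a description without a test.

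Metallothioneins are small, cysteine-rich cytosolic proteins that bind zinc and copper and take up reactive oxygen species. Mt1 and Mt2 are expressed in many tissues. They are switched on by zinc through the factor MTF1, which binds metal response elements, and by glucocorticoids. Mt3 is the brain form, known from neurons and astrocytes, and Mt4 is known from stratified squamous epithelium. In the brain, Mt1 and Mt2 are known for their level in astrocytes and in the vessel wall.

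The family lies in 1 row on the plus strand of chromosome 8 in the order Mt4, Mt3, Mt2 and Mt1 (GRCm38, GENCODE vM21). Mt1 (ENSMUSG00000031765) spans chr8:94179082-94180327, Mt2 (ENSMUSG00000031762) spans chr8:94172664-94173568 and Mt3 (ENSMUSG00000031760) spans chr8:94152607-94154146. The gap between Mt2 and Mt1 is 5513 bases, and that between Mt3 and Mt2 is 18517 bases. No stretch of 50 bases in a transcript of Mt1, Mt2 or Mt3 recurs in a transcript of another gene. An antisense RNA gene, Gm45774, overlaps Mt2 on the minus strand, and the sources used here do not give the strand setting of the counting.

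The RefSeq promoters of Mt1, Mt2 and Mt3 are shown because the vessel genes Mt1 and Mt2 and the brain form Mt3 differ in them. Each line gives the 250 bases before the transcription start of RefSeq (GRCm38.p6), 5′ to 3′, and capitals mark matches to the core of the metal response element (TGCACNC or TGCGCNC, on either strand).
Mt1, chr8:94178839-94179088, + strand: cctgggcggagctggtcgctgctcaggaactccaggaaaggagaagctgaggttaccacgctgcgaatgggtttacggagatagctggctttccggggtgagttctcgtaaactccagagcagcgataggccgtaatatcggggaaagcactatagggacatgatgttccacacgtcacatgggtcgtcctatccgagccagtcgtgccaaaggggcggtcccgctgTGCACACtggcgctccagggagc
Mt2, chr8:94172368-94172617, + strand: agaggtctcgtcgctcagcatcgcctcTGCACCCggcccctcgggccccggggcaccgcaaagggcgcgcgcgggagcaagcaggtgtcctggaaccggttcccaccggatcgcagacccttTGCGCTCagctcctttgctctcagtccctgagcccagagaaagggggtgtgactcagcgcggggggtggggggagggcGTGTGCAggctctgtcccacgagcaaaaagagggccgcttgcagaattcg
Mt3, chr8:94152357-94152606, + strand: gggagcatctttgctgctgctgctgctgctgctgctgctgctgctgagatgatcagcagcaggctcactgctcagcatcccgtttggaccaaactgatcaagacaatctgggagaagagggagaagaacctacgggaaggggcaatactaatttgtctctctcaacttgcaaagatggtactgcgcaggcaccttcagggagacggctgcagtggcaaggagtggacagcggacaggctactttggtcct
Over a window of 300 bases, from 250 before to 50 after the start, the core matched 4 times in Mt2, 3 times in Mt1 and 1 time in Mt3. Of the 4 matches in Mt2, 3 lie before the start, at -223 to -217, at -128 to -122 and, on the minus strand, at -50 to -44. Mt1 has 1 match before its start, at -23 to -17, and 2 after it, at 3 to 9 and at 21 to 27. The match of Mt3 lies after its start. The RefSeq starts of Mt1 and Mt2, at 94179089 and 94172618, are not the first bases of these genes in GENCODE. Which matches lie before the start therefore depends on the start used. Of 32851 promoter windows of the same length, 25.7% held at least 1 match, 1.97% at least 3 and 0.517% at least 4. The antioxidant response element core TGACNNNGC matched 1 time in Mt2, at -79 to -71, and 12.4% of the windows hold it. The full palindromic glucocorticoid response element matched in none of the 3 windows, on either strand, and 0.00913% of the windows hold it.

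The libraries held 3795 to 8912 cells after filtering, with median UMIs per cell of 1094, 2780 and 1808 at 12 months, against 3073, 5328, 4558 and 4906 at 3 months. The 12-month libraries carry single indices and were counted with another version of Cell Ranger than the dual-index 3-month libraries. Age, index type, software version and depth therefore cannot be told apart. Libraries share 1 to 24 barcodes per pair, at most 0.37% of the smaller library. Mt1 had 125176 UMIs in 22143 of 37176 cells, Mt2 had 32875 UMIs in 12769 cells and Mt3 had 6897 UMIs in 1031 cells. Cells were clustered without the 3 genes, and clusters were named from marker genes, so a name means cells like that type. A level below is the UMIs of a gene over all UMIs of a class in 1 library, scaled to CPM, and means weight libraries equally. In 3′ counts a level is not per transcript length, and levels of different genes are set side by side only as UMIs.

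Mt1 was high in capillary and venous endothelial cells and low in arterial endothelial cells. In capillary endothelial cells Mt1 had 1210.3, 745 and 1163 CPM in the 12-month libraries, against 1494, 707, 914 and 873 CPM in the 3-month libraries. In arterial endothelial cells it had 42.5, 44.9 and 117 CPM at 12 months, against 134, 131, 89.2 and 130.4 CPM at 3 months. In venous endothelial cells it had 795, 752 and 654 CPM at 12 months, against 1171, 548, 789 and 418 CPM at 3 months. No arterial level of any library reached the lowest capillary or venous level. The means over the 7 libraries were 1015 ± 285 CPM in capillary, 98.5 ± 40.4 CPM in arterial and 732 ± 238 CPM in venous cells (SD, n = 7). Within a library, the capillary level exceeded the arterial level by 3.46 ± 0.80 on the log2 scale, 10.99-fold, with a range of 2.43 to 4.83 and higher in 7 of 7 libraries. Capillary cells exceeded venous cells by 0.49 ± 0.37, 1.40-fold, in 6 of 7 libraries, with a spread between libraries nearly as large.

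Finer clusters placed the step between arterioles and capillaries. Endothelial cells of large arteries, led by the matrix genes Fbln5 and Mgp, averaged 65.1 ± 42.8 CPM of Mt1. Arteriolar cells, led by Gkn3 and Vegfc, averaged 115 ± 51.4 CPM. Arterial-side capillary cells, led by Lypd1 and Ccn3, averaged 853 ± 352 CPM. The last exceeded arteriolar cells by 2.96 ± 0.48 on the log2 scale, 7.80-fold and in 7 of 7 libraries, while arteriolar cells exceeded large-artery cells in 5 of 7 libraries only, by 0.88 ± 0.96. The arterial-side capillary and the arteriolar cluster had medians of 2574 and 3987 UMIs per cell, so the cells with the lower Mt1 level were the more deeply counted of the pair.

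Past that step the level changed less. Mid-capillary cells averaged 621 ± 251 CPM, below arterial-side capillary cells in 5 of 7 libraries and by 0.48 ± 0.56 on average, within the spread between libraries. Venous-side capillary cells, led by Cyp2e1, Aldh1a1 and Icam1, averaged 1156 ± 385 CPM and exceeded mid-capillary cells by 0.93 ± 0.24, 1.91-fold, in 7 of 7 libraries. They also exceeded venules and veins, led by the selectin gene Selp and the atypical chemokine receptor gene Ackr1, by 0.66 ± 0.41 in 7 of 7 libraries. Icam1 is also a marker used to name venules and veins, and both marker lists hold Slc38a5 and Ctsc. The border between these clusters is therefore uncertain. A capillary cluster led by Apln, Kit and Angpt2 averaged 1162 ± 304 CPM, and another, called the Cdkn2b cluster here, averaged 1202 ± 314 CPM. Neither differed from venous-side capillary cells beyond the spread, with differences of 0.03 ± 0.11 and 0.08 ± 0.34. The Cdkn2b cluster is led by the hemoglobin genes Hba-a1 and Hba-a2, ahead of Cdkn2b and Cxcl12. Of its cells 36.6% had a hemoglobin UMI, against 26.6 to 47.9% in the other endothelial clusters, but its hemoglobin level was the highest, at 9861 CPM against 1777 to 6851 CPM, and its median depth the lowest, at 1582 UMIs per cell. It had 9 of 23 capillary markers raised, and its mean log2 score was 0.246 for mid-capillary markers, against 0.525 for microglia markers, so its place among the capillary clusters is uncertain. Without it, a setting chosen after seeing the data, the capillary class averaged 990.4 ± 279 CPM of Mt1 and exceeded arterial cells by 3.42 ± 0.82 on the log2 scale for Mt1 and 3.82 ± 1.13 for Mt2, in 7 of 7 libraries each.

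**Figure D1:**
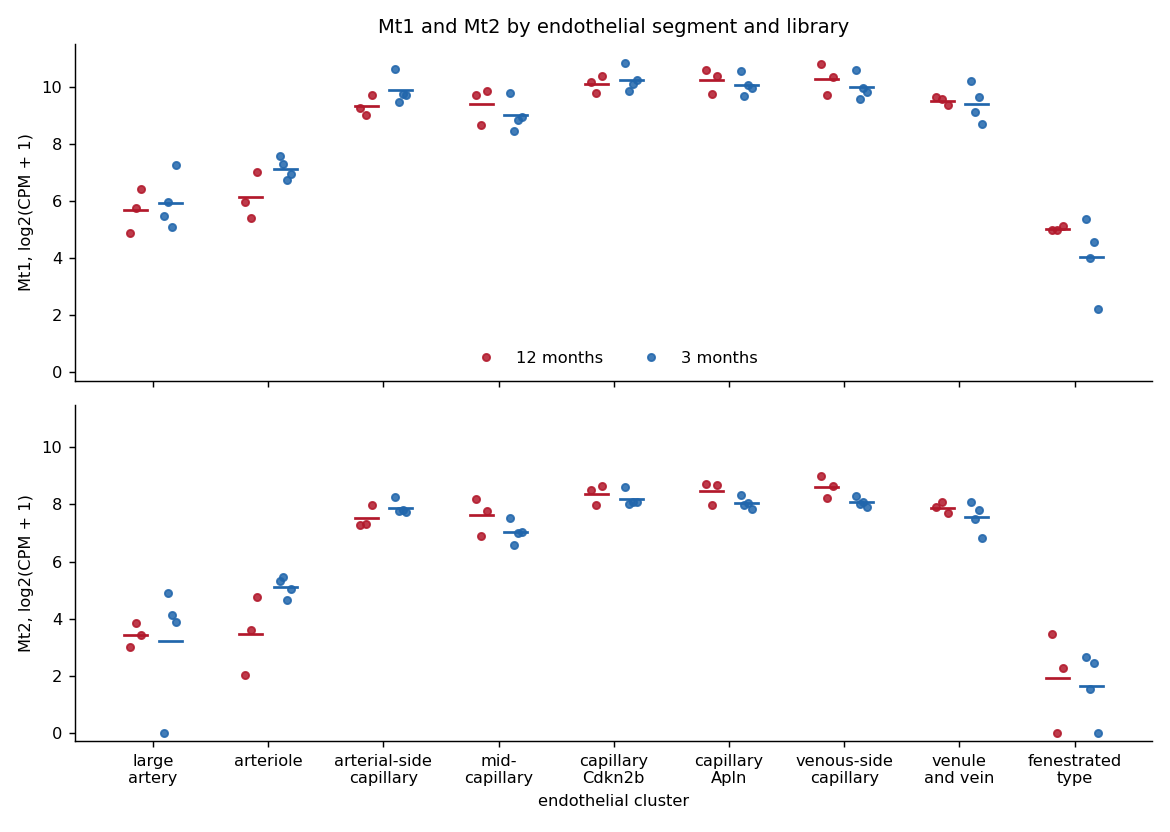
Mt1 (upper panel) and Mt2 (lower panel) by endothelial cluster, as log2 of CPM plus 1. Each point is 1 library, with 12 months in red left of 3 months in blue, and each bar is the mean of its age group. Large-artery and arteriolar cells average 65.1 and 115 CPM of Mt1, the capillary clusters 621 to 1202 CPM, and fenestrated-type cells 25.3 CPM.

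Endothelial cells of the fenestrated type had the lowest Mt1 level of the endothelial clusters. They are led by Plvap, the protein of fenestral diaphragms, and Esm1. Mt1 had 30.3, 30.7 and 34.2 CPM in their 12-month libraries, against 40.5, 15.1, 22.9 and 3.67 CPM in their 3-month libraries. Capillary cells were higher in 7 of 7 libraries. No fold is given, since the level of fenestrated-type cells was not above the background described below. Endothelial cells with interferon-induced genes, led by Ifit2 and Ifit3, averaged 1097 ± 319.7 CPM, within the range of capillary libraries.

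Mt2 was likewise high in capillary and venous and low in arterial and fenestrated-type endothelial cells. In capillary endothelial cells Mt2 had 342, 239 and 349 CPM at 12 months, against 307, 222, 238 and 217 CPM at 3 months. In arterial endothelial cells it had 5.32, 11.7 and 21.6 CPM at 12 months, against 24.5, 38.7, 22.6 and 26.5 CPM at 3 months. In venous endothelial cells it had 238, 269 and 206 CPM at 12 months, against 274, 180.3, 223 and 113 CPM at 3 months. Again no arterial library reached the lowest capillary or venous library. The difference of capillary from arterial cells was 3.85 ± 1.13 on the log2 scale, 14.4-fold, and rested on 239 arterial UMIs. Venous-side capillary cells had the highest mean of the segments with 327 ± 96.9 CPM, and large-artery cells averaged 12.7 ± 8.85 CPM with 0 UMIs in 1 library. Fenestrated-type cells averaged 3.64 ± 3.53 CPM, with 0 UMIs in 2 libraries.

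The share of Mt2 among the UMIs of Mt1 and Mt2 was lower in smooth muscle cells and microglia than in capillary endothelial cells. It was 21.6 ± 2.56% in capillary cells, with 22.1, 24.3 and 23.1% at 12 months, against 17.0, 23.9, 20.7 and 19.9% at 3 months. It was 22.9 ± 2.43% in venous cells and 17.5 ± 3.98% in arterial cells, where the ranges of the libraries overlap. Among the capillary clusters the mean share ran between 20.9 and 22.4%. In smooth muscle cells it was 4.88 ± 1.55% and in microglia 2.46 ± 1.32%, and no library of these 2 classes reached the lowest capillary library. Microglia and smooth muscle cells held Mt1 UMIs with few of Mt2. In fenestrated-type cells, with 24 Mt2 UMIs in all, the share was 10.5 ± 8.79%.

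**Figure D2:**
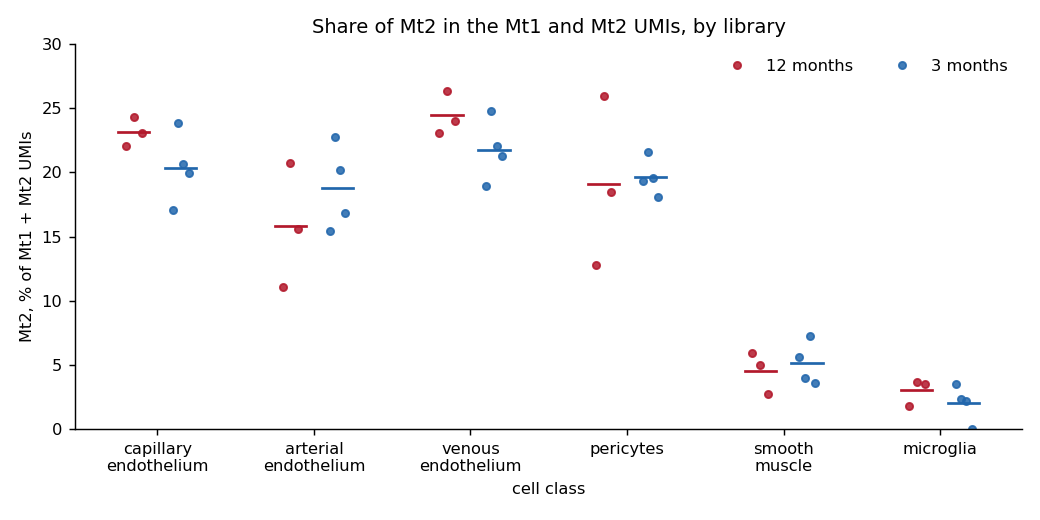
Share of Mt2 among the UMIs of Mt1 and Mt2, in percent, by cell class. Each point is 1 library, with 12 months in red left of 3 months in blue, and each bar is the mean of its age group. Capillary libraries lie between 17.0 and 24.3%, smooth muscle libraries between 2.73 and 7.25% and microglia libraries between 0 and 3.70%.

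Over all cells of a class, Mt1 was ordered pericytes, microglia and smooth muscle cells, with overlap between neighbours and with endothelial RNA in the pericytes, as described below. In pericytes, the mural cells of capillaries, Mt1 had 369, 252 and 347 CPM at 12 months, against 899, 345, 512 and 489.8 CPM at 3 months. In smooth muscle cells, which wrap arteries and arterioles, it had 528, 285 and 219 CPM at 12 months, against 252, 161, 133 and 203 CPM at 3 months. In microglia, the resident macrophages of the brain, it had 484, 444 and 407 CPM at 12 months, against 562, 415, 363 and 153 CPM at 3 months. Capillary endothelial cells exceeded all of them in 7 of 7 libraries, by 1.21 ± 0.45 on the log2 scale over pericytes, 1.37 ± 0.59 over microglia and 2.08 ± 0.59 over smooth muscle cells. Pericytes exceeded smooth muscle cells, and microglia exceeded smooth muscle cells, in 5 of 7 libraries each, by 0.87 ± 0.95 and 0.71 ± 0.72. The difference between pericytes and smooth muscle cells is within the spread between libraries.

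Mt2 was higher in pericytes as a class than in smooth muscle cells. In pericytes Mt2 had 54.2, 88.0 and 78.7 CPM at 12 months, against 215, 95.3, 125 and 108 CPM at 3 months. In smooth muscle cells it had 33.5, 14.9 and 6.15 CPM at 12 months, against 15.1, 6.76, 10.4 and 7.59 CPM at 3 months, from 62 UMIs in all. Pericytes, with the endothelial RNA described below, were higher in 7 of 7 libraries, by 3.15 ± 1.17 on the log2 scale. In microglia Mt2 had 9.08, 17.1 and 15.0 CPM at 12 months, against 20.7, 10.0, 8.20 and 0 CPM at 3 months. The last value is 0 UMIs in 107 cells, which allows up to 5.48 CPM (3 UMIs, counting error only).

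The pericyte values moved with endothelial RNA in the same droplets. The summed level of 10 endothelial markers was 10016 CPM in pericytes (8147 to 11500 over libraries), against 16501 CPM in capillary cells. It was 805 CPM in smooth muscle cells (409 to 1381) and 478 CPM in microglia (263 to 1236), and no marker of the 10 was at 0 in any of the 3 classes. Ordered by these markers and split into 3 groups of like size, the 423 pericytes with the least endothelial RNA had 84.96 CPM of Mt1 (exact Poisson interval 66.2 to 107) at 345 CPM of endothelial markers. The middle group had 353 CPM (327 to 379.7) and the highest group 511 CPM (489 to 533), at 7933 and 13867 CPM of endothelial markers. Pericyte markers fell from 37455 CPM in the lowest group to 13102 CPM in the middle and 7741 CPM in the highest group. Levels and age differences of the whole pericyte class therefore include droplets rich in endothelial RNA. Mt2 was at 12.1, 86.5 and 134 CPM in the same order, and the share of Mt2 at 12.5, 19.7 and 20.7%. The Mt2 value of the lowest group joins unlike libraries. It had 32.7 and 30.7 CPM in 12-month replicates 2 and 3, and 0 CPM in each 3-month library. Over the 6 libraries with enough such cells, the lowest group averaged 79.4 ± 19.3 CPM of Mt1, close to arterial endothelial cells. Median depth moved along with 1557, 3035 and 6952 UMIs per cell, and the part of depth in the order was not tested.

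Smooth muscle cells and microglia kept their Mt1 level without endothelial markers. The 558 smooth muscle cells with no endothelial marker UMI had 237 CPM of Mt1, against 175 CPM in the middle group and 247 CPM in the group with the most. The 1721 microglia with none had 409 CPM, against 407 CPM in the group with the most. Mt2 was at 9.91 CPM in smooth muscle cells without endothelial markers (exact Poisson interval 6.28 to 14.9), which overlaps with the 12.1 CPM (5.82 to 22.3) of the pericytes with the least. Mt1 among the cells with the least endothelial RNA was ordered microglia, smooth muscle cells and pericytes, unlike in the whole classes. Mt2 in microglia was at 9.78 CPM without endothelial markers and at 26.4 CPM in the group with the most, and the share of Mt2 was at 2.33 and 6.08%.

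**Figure D3:**
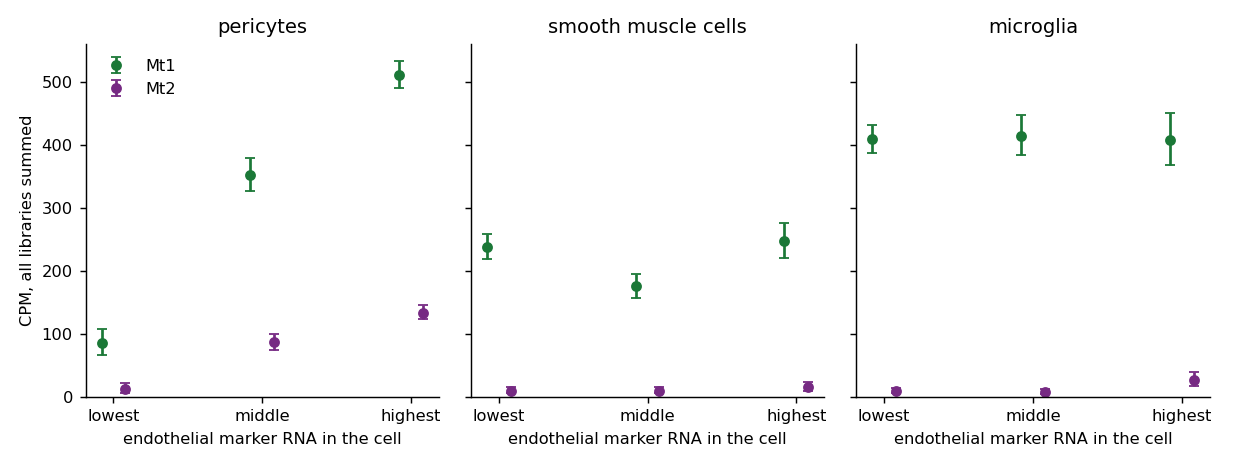
Mt1 and Mt2 in CPM, all libraries summed, in pericytes, smooth muscle cells and microglia ordered by their endothelial marker level and split in 3; in smooth muscle cells and microglia the lowest group holds all cells with no such UMI. Bars are exact Poisson intervals at 95% and cover counting error only. In pericytes both genes are lowest in the lowest group, with Mt1 at 84.96 CPM, while Mt1 in microglia lies between 407 and 414 CPM throughout.

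Cell by cell, the level was spread over many capillary cells. After thinning each cell to 1000 UMIs, 49.0 ± 7.31% of capillary cells had a Mt1 UMI, against 6.64 ± 2.28% of arterial and 36.6 ± 4.84% of venous cells. Mt2 had a UMI in 20.9 ± 4.59% of capillary, 1.94 ± 1.31% of arterial and 16.4 ± 3.26% of venous cells. Without thinning, the capillary shares were 70.1% for Mt1 and 43.7% for Mt2. Thinning left out 1096, 88 and 566 capillary cells at 12 months, against 75, 38, 71 and 30 at 3 months. B cells, a blood cell class, serve as a gauge of free RNA in the droplets, with a median of 1984 UMIs per cell and a Mt1 UMI in 2.96 ± 2.80% of thinned cells. Fenestrated-type cells, with a median of 2479 UMIs, had one in 2.32 ± 1.19%, which is not above that background. Mt2 in smooth muscle cells (0.844%) and microglia (0.825%) was not above the 1.44 ± 2.12% of B cells either, and the 1.94% of arterial cells lies within that spread. The fold of capillary over arterial cells for Mt2 therefore rests on an arterial level near background. B cells had the lowest Mt1 mean of the blood cell classes, and T or NK cells and erythroid barcodes, given below, lay above arterial cells. Whether the arterial Mt1 level is above free RNA thus depends on the class taken as the gauge, and was not tested.

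Within the capillary class, Mt1 varied more between cells than counting error alone gives. The variance of thinned Mt1 UMIs was 1.88 ± 0.27 times their mean over the 7 libraries, and for Mt2 1.22 ± 0.04 times, where counting error alone gives a ratio near 1. The 10% of cells with most Mt1 held 42.4 ± 2.75% of its UMIs. A Mt2 UMI was present in 29.5 ± 4.75% of the capillary cells with a Mt1 UMI, against 12.3 ± 2.36% of those without. The same shares were 20.1% and 4.15% in pericytes and 15.3% and 0.93% in arterial cells. In venous libraries they ran from 20.8 to 35.5% and from 5.75 to 10.9%. In microglia, where Mt2 was not above background, they were 0.94% and 0.76%. The variance of Mt1 over its mean was 1.83 ± 0.49 in smooth muscle cells, 1.66 ± 0.22 in pericytes and 1.42 ± 0.30 in microglia. It was 1.31 ± 0.17 in arterial cells and ran from 1.59 to 5.99 in venous libraries. The ratio in capillaries includes the clusters described above and the spread between them.

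Mt3 was near the background of free RNA in every vessel class. It had 2.70, 3.29 and 4.70 CPM in capillary cells at 12 months, against 12.1, 6.06, 5.81 and 2.56 CPM at 3 months. The means were 7.70 ± 5.06 CPM in pericytes, 3.84 ± 3.35 CPM in arterial, 2.23 ± 1.78 CPM in venous and 4.11 ± 3.39 CPM in smooth muscle cells. Microglia averaged 6.29 ± 5.21 CPM and B cells 8.07 ± 4.97 CPM (n = 6). In thinned cells, a Mt3 UMI was present in 0.567 ± 0.296% of capillary cells and 0.515 ± 0.967% of B cells. The high cells lay outside the vessel wall. Choroid plexus epithelial cells, with the transthyretin gene Ttr at 294455 CPM, had 1262 and 1054 CPM of Mt3 in the 12-month libraries with enough cells, against 1379.5 CPM in 1 of the 3-month libraries. An unnamed cluster of 260 cells, with the glutamate transporter gene Slc1a2, Chga and Aldoc among its leading genes, mixes markers of astrocytes and hormone cells. It had 1317 and 923 CPM of Mt3 at 12 months, against 1621 and 816 CPM at 3 months. In a thinned cell, Mt3 was present in 57.3 ± 12.5% of the first and 41.6 ± 5.20% of the second.

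Those cell groups differ in the other family members. The unnamed cluster had the highest Mt1 level of the cell groups in use, 2179.8 ± 201 CPM, and 469 ± 162 CPM of Mt2. Choroid plexus epithelial cells had 198 ± 24.8 CPM of Mt1 and 14.7 ± 9.90 CPM of Mt2. The summed level of 10 astrocyte markers was 3922 CPM in the unnamed cluster and between 24 and 165 CPM in the vessel classes and microglia. In blood cells, erythroid barcodes averaged 648 ± 336 CPM of Mt1 (n = 4), T or NK cells 198 ± 67.5 CPM (n = 3) and B cells 42.8 ± 42.7 CPM (n = 6). Their Mt2 shares were 23.4 ± 2.96%, 21.7 ± 13.1% and 22.9 ± 27.6% in the same order, beside 21.6 ± 2.56% in capillary cells. The part of free RNA in the blood cell levels was not tested.

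**Figure D4:**
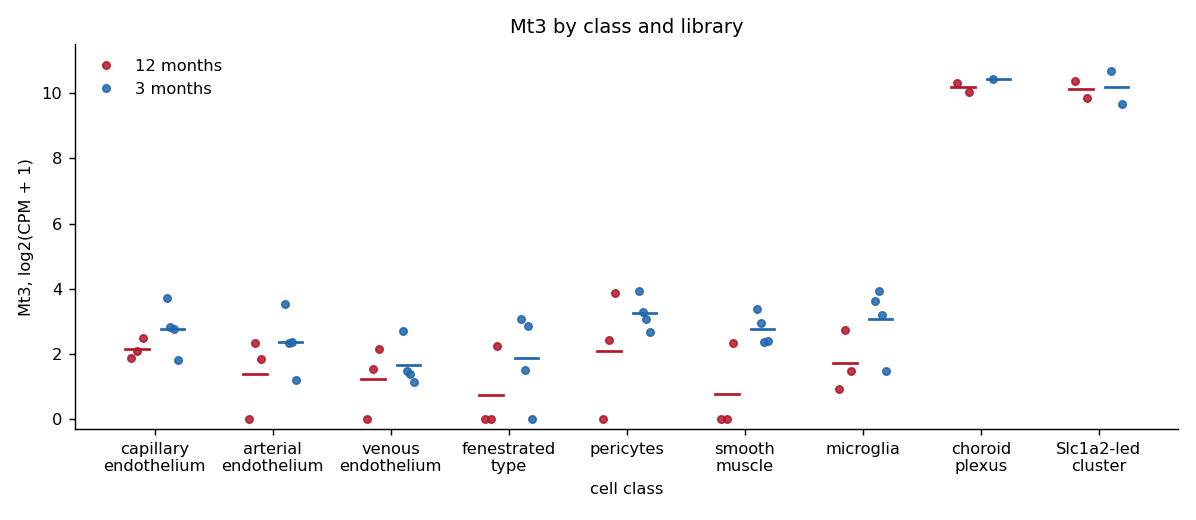
Mt3 by cell class, as log2 of CPM plus 1. Each point is 1 library, with 12 months in red left of 3 months in blue, and each bar is the mean of its age group. Choroid plexus epithelial cells and the unnamed cluster lie between 816 and 1621 CPM, and every library of the other classes shown lies below 15 CPM.

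By age, no test of the 3 genes passed the threshold in any of the 6 classes. UMIs were summed per library and class and tested with edgeR's quasi-likelihood test, with Benjamini-Hochberg adjustment over all genes of the class. The genes passed the filter on low counts in 12 tests, Mt1 in 6, Mt2 in 5 and Mt3 in capillary cells alone, and 0 of 12 passed an adjusted p of 0.05. The unadjusted p was under 0.05 in 6 of the 12, and DESeq2 called 0. Over all genes, 4.48% passed in capillary cells, 0.313% in arterial, 2.49% in venous cells, 0.147% in pericytes, 0.282% in smooth muscle cells and 1.72% in microglia. These counts depend on single libraries: without 3-month replicate 1 they were 921 against 555 genes in capillary cells, 69 against 30 in arterial and 444 against 260 in venous cells, 76 against 14 in pericytes and 99 against 23 in smooth muscle cells.

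In capillary cells the smallest p of the 3 genes was that of Mt2, which averaged 310.1 ± 61.6 CPM at 12 months (n = 3) and 246 ± 41.6 CPM at 3 months (n = 4). Its log2 difference was 0.45 ± 0.19 (SE, adjusted p = 0.24 by edgeR), and 2 of 3 12-month libraries lay above all 3-month libraries. Mt1 averaged 1039 ± 256 CPM at 12 months and 997 ± 343 CPM at 3 months, a difference of 0.18 ± 0.26 (adjusted p = 0.80). Mt3 averaged 3.56 ± 1.03 CPM at 12 months and 6.64 ± 3.99 CPM at 3 months, a difference of -0.68 ± 0.45 (adjusted p = 0.49). With classes built without integration of the libraries, the Mt1 and Mt2 differences turned to -0.61 and -0.40 (adjusted p = 0.19 and 0.31), so their direction depends on how the cells were grouped.

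The makeup of the capillary class moved with age as well. The mid-capillary cluster, which has the least Mt1 and Mt2 of the capillary clusters, held 4.16, 6.20 and 8.40% of the capillary cells at 12 months, against 23.0, 25.2, 26.9 and 27.7% at 3 months. The arterial-side cluster held 33.9, 32.9 and 29.0% at 12 months, against 24.4, 23.5, 20.7 and 25.0% at 3 months. The Cdkn2b cluster held 24.8, 24.5 and 30.8% at 12 months, against 22.3, 17.7, 19.1 and 15.6% at 3 months. Without the mid-capillary cluster the capillary differences were 0.04 for Mt1 and 0.32 for Mt2. Without the Cdkn2b cluster both stayed positive and short of the threshold. The part of the makeup in the age differences was not tested. Within single capillary clusters, the Mt1 difference was -0.54 in arterial-side, -0.14 in Cdkn2b, 0.27 in Apln, 0.40 in mid-capillary and 0.39 in venous-side cells. The Mt2 difference was -0.26, 0.21, 0.51, 0.55 and 0.65 in the same clusters. The adjusted p of these 10 values lay between 0.13 and 0.88.

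Arterial cells had less Mt1 and Mt2 at 12 months in these libraries, short of the threshold. Mt1 averaged 68.2 ± 42.4 CPM at 12 months and 121 ± 21.4 CPM at 3 months (log2 difference -0.76 ± 0.31, adjusted p = 0.55 by edgeR). Mt2 averaged 12.9 ± 8.20 CPM at 12 months and 28.1 ± 7.26 CPM at 3 months (-0.99 ± 0.34, adjusted p = 0.40). Its groups did not overlap, as in 8.18% of the 11289 genes with at least 20 UMIs in these cells. Large-artery cells, the lower of the 2 arterial clusters, made up 58.0, 30.1 and 26.9% of the arterial class at 12 months, against 33.1, 33.3, 22.8 and 30.7% at 3 months. With the arteriolar cluster alone, a setting chosen after seeing the data, the Mt1 and Mt2 differences stayed negative and short of the threshold. The part of the makeup in the arterial differences was not tested. Without a filter on low counts both genes passed, with adjusted p of 0.048 for Mt1 and 0.038 for Mt2, and without integration both turned positive, at 0.30 and 0.053. Without 12-month replicate 3, Mt1 passed at -1.40 (adjusted p = 0.037). In venous cells the differences were 0.07 ± 0.32 for Mt1 and 0.35 ± 0.28 for Mt2 (adjusted p = 0.96 and 0.70).

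Pericytes also had lower levels at 12 months, and smooth muscle cells a higher one, none past the threshold. Mt1 in pericytes averaged 322 ± 62.2 CPM at 12 months and 561 ± 237 CPM at 3 months (-0.84 ± 0.30, adjusted p = 0.34). Mt2 averaged 73.7 ± 17.5 CPM at 12 months and 136 ± 54.2 CPM at 3 months (-0.70 ± 0.28, adjusted p = 0.46), with no overlap between the groups, as in 8.35% of the 11455 genes with at least 20 UMIs. Mt1 in smooth muscle cells averaged 344 ± 163 CPM at 12 months and 187 ± 52.0 CPM at 3 months (0.80 ± 0.27, adjusted p = 0.32), and passed at 0.99 without 3-month replicate 1 (adjusted p = 0.014). Endothelial markers moved the same way in smooth muscle cells, with a mean of 1105 CPM at 12 months and 579 CPM at 3 months, and in pericytes, with 9252 CPM at 12 months and 10590 CPM at 3 months. Without the pericytes of highest endothelial RNA, a setting chosen after seeing the data, the pericyte differences were -0.15 for Mt1 and -0.02 for Mt2. In that highest group, Mt1 had 282 and 407 CPM at 12 months, against 422, 673 and 651 CPM at 3 months. Mt2 there had 104 and 91.5 CPM at 12 months, against 118, 166 and 150 CPM at 3 months. Endothelial markers there were at 13452 and 14371 CPM at 12 months, against 13697, 14077 and 14485 CPM at 3 months. In the middle and lowest groups Mt1 overlapped between the ages. In the lowest group Mt2 was found at 12 months only. Libraries with under 20 cells of a group are left out. In smooth muscle cells with no endothelial marker UMI, Mt1 had 583, 279 and 251 CPM at 12 months. The 3-month values of such cells were 252, 165, 139 and 178 CPM. The ages overlapped in these cells and in the middle and highest groups. The part of the endothelial markers in the Mt1 difference of smooth muscle cells and in the pericyte differences was not tested. Hemoglobin and other erythroid markers in pericytes ran the other way from endothelial markers, with 11393 CPM at 12 months and 6403 CPM at 3 months. In microglia Mt1 averaged 445 ± 38.6 CPM at 12 months and 373 ± 169 CPM at 3 months (0.30 ± 0.30, adjusted p = 0.76).

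**Figure D5:**
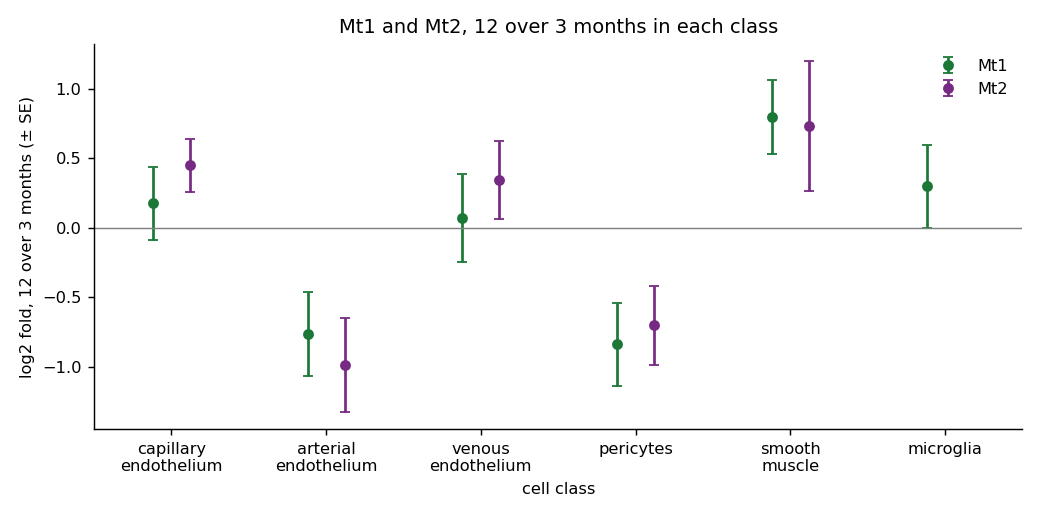
Log2 difference of 12 over 3 months for Mt1 (green) and Mt2 (purple) in 6 cell classes, with standard errors from edgeR. Mt2 in microglia was below the filter on low counts and has no point. No difference passed the adjusted threshold, and those of arterial cells and pericytes are negative where that of Mt1 in smooth muscle cells is positive.

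Whether the age difference depended on the class was tested in 1 fit over the 6 classes, with the age difference of each class set against that of capillary cells. Of 15 tests of the members, 1 passed and 5 had an unadjusted p under 0.05. Mt2 in pericytes passed, with an age difference lower than in capillary cells by 0.97 ± 0.26 on the log2 scale (adjusted p = 0.037 by edgeR), where 1.39% of 12122 genes passed and 0.742% passed in that direction. The call was lost without 12-month replicate 1 (-0.89), 12-month replicate 3 (-0.75), 3-month replicate 1 (-0.85) or 3-month replicate 3 (-1.01), with adjusted p between 0.020 and 0.349 over the 7 omissions. With the pericytes of highest endothelial RNA left out, the difference was -0.28 (adjusted p = 0.92), a setting chosen after seeing the data. Mt2 in arterial cells differed from capillary cells by -1.40 ± 0.37 (adjusted p = 0.087) and Mt1 by -0.92 ± 0.33 (adjusted p = 0.38), where 0.338% of genes passed. Without 12-month replicate 3 both passed, at -1.78 for Mt2 and -1.43 for Mt1. The Mt1 and Mt2 differences of venous cells from capillary cells were 0.02 ± 0.28 and 0.02 ± 0.19 (adjusted p = 1.0 each), where 1.43% of genes passed. For smooth muscle cells they were 0.62 ± 0.32 and 0.32 ± 0.61 (adjusted p = 0.36 and 0.87), where 2.55% passed, and for microglia 0.22 ± 0.31 and 0.18 ± 0.61 (adjusted p = 0.79 and 0.95), where 5.49% passed. For Mt3 they were -1.72 ± 0.95 in smooth muscle cells and -1.57 ± 0.70 in microglia (adjusted p = 0.40 and 0.21), and 0.05 to 0.67 in the other 3 classes (adjusted p between 0.65 and 1.0).

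Few of the genes that handle zinc differed between capillary and arterial cells. The list holds Mtf1, the zinc exporters of the Slc30 family and the importers of the Slc39 family. Between capillary and arterial cells, tested within libraries, 37.0% of all genes passed, 17.8% higher and 19.2% lower in capillary cells. Of 16 zinc genes tested, 2 were higher and 1 lower. The importer gene Slc39a8 averaged 130 CPM in capillary and 34.0 CPM in arterial cells (log2 difference 1.91, adjusted p = 6.7e-15 by edgeR). Slc39a10 averaged 724 CPM in capillary and 344 CPM in arterial cells (1.08, adjusted p = 8.2e-12). Mtf1, the metal-sensing factor that acts on the metallothionein genes, and Slc30a1, the exporter gene that it also induces, did not pass (0.12 each, adjusted p = 0.38 and 0.21). The lower one, Slc39a14, was named after its values were seen and had 0.53 CPM in capillary and 7.99 CPM in arterial cells.

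Other lists split in both directions between these segments. Of 12 copper genes, 2 were higher in capillary cells and 3 lower, among them the copper importer gene Slc31a1 with 127 CPM in capillary and 56.7 CPM in arterial cells, and the ferroxidase gene Cp with 154 CPM in capillary and 567 CPM in arterial cells. Of 18 thiol and antioxidant genes, 2 were higher and 7 lower, with the glutathione transferase gene Gsta4 at 368 CPM in capillary and 159 CPM in arterial cells. Of 17 glucocorticoid-induced genes, 5 were higher and 5 lower. Of 16 hypoxia-induced genes, 7 were higher and 1 lower, and Ankrd37 had 107 CPM in capillary and 12.6 CPM in arterial cells. Of 19 immediate early genes, 2 were higher and 8 lower. Of the 6 tested neighbours of the metallothionein genes, 0 passed by edgeR, the one test run between segments, and 1 had an unadjusted p under 0.05.

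Between capillary and venous cells, 42.7% of all genes passed, 21.6% higher and 21.1% lower in capillary cells. Slc30a1 was higher in capillary cells, with 319 CPM in capillary and 208 CPM in venous cells (0.57, adjusted p = 8.7e-06), as was Slc39a10 with 724 CPM in capillary and 294 CPM in venous cells. Slc39a8 was lower, with 130 CPM in capillary and 200.2 CPM in venous cells. Of 19 immediate early genes 17 were lower in capillary cells, among them Socs3 by 2.06 on the log2 scale, and of 18 glucocorticoid-induced genes 8 were lower and 2 higher. Of 7 tested neighbours of the metallothionein genes Herpud1 passed, with 99.99 CPM in capillary and 85.6 CPM in venous cells (0.19, adjusted p = 0.013). Fkbp5, a glucocorticoid-induced chaperone gene, was lower by 2.46 in capillary than in venous cells. It averaged 4.92 ± 7.21 CPM in capillary and 25.7 ± 36.6 CPM in venous cells, with an SD above the mean in both. Lcn2, also among the lower glucocorticoid-induced genes, is a marker used to name venules and veins.

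By age, no gene of the zinc list passed in any of the 6 classes, by edgeR or by DESeq2. In capillary cells 0 of its 16 tested genes passed (3 at an unadjusted p under 0.05), and its median log2 difference was -0.25 against 0.02 over all genes. Slc30a1 averaged 246 CPM at 12 months and 374 CPM at 3 months (-0.48, adjusted p = 0.22), and Mtf1 averaged 27.2 CPM at 12 months and 25.5 CPM at 3 months (0.23, adjusted p = 0.48). Of 20 thiol and antioxidant genes 0 passed by edgeR or DESeq2, and 3 had an unadjusted p under 0.05. Of 12 copper genes Cp passed, with 198 CPM at 12 months and 121 CPM at 3 months (0.83, adjusted p = 0.043).

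Immediate early genes, which also respond to tissue dissociation, had more members past the threshold by age in capillary cells than any other list used here. Of 19 tested, 14 were higher at 12 months, with a list median of 1.19, where 3.36% of all genes were higher. Fos averaged 3564 CPM at 12 months and 840.2 CPM at 3 months, Atf3 averaged 939 CPM at 12 months and 82.9 CPM at 3 months, and Socs3 averaged 169 CPM at 12 months and 39.5 CPM at 3 months. Of 17 hypoxia-induced genes 5 were higher, among them Ankrd37 with 177 CPM at 12 months and 53.8 CPM at 3 months. Of 18 glucocorticoid-induced genes 2 were higher and 2 lower, with Lcn2 at 77.9 CPM at 12 months and 5.55 CPM at 3 months. Mt1 and Mt2 are known to be induced by glucocorticoids and by cell stress, and the part of dissociation in their levels was not tested.

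Genes whose mean log2 level ran most like that of Mt1 were sought over 13 classes and endothelial clusters, as a description over points that share libraries. Of 5748 genes above the level filter, Brd7, a bromodomain gene, ranked first with a Pearson correlation of 0.938, and Mt2 ranked second with 0.901. Gatm, the first enzyme gene of creatine synthesis, followed with 0.897, and its level was 508 CPM in venous-side capillary cells, 23.3 CPM in large-artery cells and 12.5 CPM in fenestrated-type cells. Gstm5, a glutathione transferase gene, and Snapc1 had 0.896 and 0.894. Ube2v2, Ttyh2 and Tmc7 completed the 8 nearest, with 0.879, 0.853 and 0.840. Brd7 varied little, between 50.4 and 97.6 CPM. Across the 7 capillary libraries, with the mean of each age removed, Mt2 correlated with Mt1 at 0.943 and ranked 133 of 3330 genes, behind genes such as Atp5l (0.998) and Eif3d (0.997). Libraries share depth and preparation, so these values describe the libraries.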

How the data were processed

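Mouse brain microvessel cells were profiled with 10x Genomics 3′ v3.1 chemistry, and sparse matrices of whole UMI counts per gene and barcode were deposited, 1 per library. Per the submitters' processing notes they were made with Cell Ranger on mm10 and used with Seurat; per the file headers, version 4.0.0 was run on the single-index and version 6.1.1 on the dual-index libraries. The deposited counts are not normalized, and the sources used here do not give the settings for introns and strand. The 3-month files list 1 extra feature with 0 UMIs, which was left out.

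Barcodes with at least 500 genes and at most 15% mitochondrial UMIs were kept, and those with the highest scrublet scores (scanpy 1.11.5), 0.8% per 1000 barcodes, were removed as doublets. Cells were integrated and clustered with Seurat 5.3.0 (reciprocal principal components, 2000 variable features without the members and listed genes, 30 components, resolution 0.5), and endothelial cells were clustered again. A class was used in a library with at least 20 cells. UMIs were summed per class and library and tested with edgeR 4.0.16 (quasi-likelihood, TMM, filterByExpr, Benjamini-Hochberg 0.05; R 4.3.3). Segments were compared with library as a term, and the age differences of classes in 1 fit with library, class and their interaction with age as terms. Intervals are exact at 95% and cover counting error only, as does the limit of 3 counts for a count of 0. The members, lists and marker genes were chosen with earlier results of these data known. Genes named from a list and comparison were among the up to 3 past the threshold with the smallest p and at least 20 CPM in either group, plus Mtf1 and Slc30a1; genes like Mt1 were the 8 with the highest correlation among those with at least 50 CPM in a class. On simulated counts for the capillary comparison by age (12367 genes) the test recovered 85.7% of genes changed by 1 and 99.0% of those changed by 2 on the log2 scale. For microglia (6873 genes) it recovered 58.0% and 100%. Recovery at the spread that Mt1, Mt2 and Mt3 have between libraries was not tested, nor was recovery in the other classes. These percentages therefore do not say how large an age difference of the 3 genes could have been missed. Alternatives were DESeq2 1.42.0, other filters, depths, cell groupings and each library left out. Cell shares were compared after thinning cells to 1000 UMIs.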

Additional observations from a re-analysis of the deposited data

Results flagged for a closer look

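In arterial endothelial cells of the 3-month libraries, Mt1 in replicate 3 lay apart from the others, with 89.2 CPM against 130.4 to 134 CPM. In venous endothelial cells of the same age, Mt3 in replicate 1 lay apart, with 5.51 CPM against 1.22 to 1.78 CPM, on 15 UMIs. Of 18 groups of 4 libraries examined these 2 stood out, where chance alone gives about 1 in 20.

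The age difference of Mt2 in pericytes was lower than that in capillary endothelial cells by a tested difference of -0.97 on the log2 scale. It is the 1 class-by-age difference of the members that passed, and its value without the pericytes of highest endothelial RNA stands beside it above.

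Mt3 was present outside the vessel classes compared above, with a mean of 1232 CPM in choroid plexus epithelial cells and 1169 CPM in the unnamed cluster led by Slc1a2. No library of capillary cells exceeded 12.1 CPM of Mt3.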

How the results depend on the processing

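Of the members' age differences in the 6 classes, those of pericytes kept their direction and stayed short of the threshold under the 18 alternatives run for each, as did Mt1 in microglia and Mt2 in venous cells under 17 each. Mt2 in smooth muscle cells did so under the 14 of 17 alternatives that gave it a value. The others gave none, among them that without 3-month replicate 1, where Mt2 was below the filter on low counts. Without integration of the libraries before clustering, the capillary differences were -0.61 for Mt1 and -0.40 for Mt2 and the arterial ones 0.30 and 0.053; the cause was not tested. Without a filter on low counts, the arterial differences of -0.76 and -0.99 passed. The range over each library left out in turn was -1.40 to -0.52 for Mt1 in arterial cells (past the threshold without 12-month replicate 3), 0.43 to 1.03 for Mt1 in smooth muscle cells (past it without 3-month replicate 1) and -0.14 to 0.45 for Mt1 in venous cells. The count of genes that differed by age in capillary cells, 555, was 308 to 921 over these omissions, lowest without 3-month replicate 4 and highest without 3-month replicate 1. The counts of 30 in arterial and 260 in venous cells, 14 in pericytes, 23 in smooth muscle cells and 119 in microglia were 16 to 69, 94 to 444, 5 to 76, 5 to 99 and 71 to 156; the lowest came without 3-month replicate 3 (arterial, microglia), 12-month replicate 2 (venous), 12-month replicate 3 (pericytes) and 12-month replicate 1 (smooth muscle). The capillary count was 1175 without a filter, 286 with sums thinned to the smallest library and 1133 without integration. Whether the replicate numbers pair the libraries is not settled. Same-number correlations were 0.01, 0.21 and -0.05 in capillary cells, where those of unlike numbers ran from -0.16 to 0.14. They were 0.13, 0.19 and 0.04 in arterial cells and 0.10, 0.17 and 0.02 in venous cells. With the number as a replicate block the capillary count was 220 and the pericyte count 95. The Mt1 difference in venous cells was then -0.056. Class-by-age differences over the omissions ran from -0.22 to 0.21 for Mt1 and -0.27 to 0.24 for Mt2 in venous cells, -0.093 to 0.47 and -0.28 to 0.67 in microglia, -1.43 to -0.68 and -1.78 to -1.14 in arterial cells (both past the threshold without 12-month replicate 3), and -1.34 to -0.75 for Mt2 in pericytes, which was -0.28 without the pericytes of highest endothelial RNA. With segments taken from marker sums in place of clusters, capillary over arterial cells gave 2.11 for Mt1 and 2.33 for Mt2, still higher in capillary cells. At 2000 UMIs per cell, Mt1 was present in 66.8% of capillary cells, 11.1% of arterial cells and 43.2% of microglia, Mt2 in 35.7, 3.32 and 2.19%, and Mt3 in 1.26% of capillary cells. Without thinning these shares were 70.1, 19.6 and 47.7% for Mt1, 43.7, 8.24 and 2.20% for Mt2 and 2.13% for Mt3, and 6.74% of fenestrated-type cells had Mt1. Of the listed genes, 24 differed by age in capillary cells, and 15 to 26 over the omissions. Depth limits the arterial values of Mt2 and all vessel values of Mt3, which rest on few UMIs.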

Other observations

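Blood and other cells in the preparation gave further levels of Mt1 and Mt2, in which the part of free RNA was not tested. Myeloid cells other than microglia, present in enough number at 12 months only, had 621, 333 and 467 CPM of Mt1 and 11.1, 109 and 34.4 CPM of Mt2. Erythroid barcodes had 362 and 709 CPM of Mt1 at 12 months, against 1097 and 423 CPM at 3 months, beside 122 and 251 CPM of Mt2 at 12 months, against 265 and 126 CPM at 3 months. T or NK cells had 259 and 126 CPM of Mt1 at 12 months, against 210.3 CPM in 1 library of 3 months. An unnamed cluster present in enough number at 3 months only had 434, 404, 323 and 345 CPM of Mt1 and a Mt2 share of 8.91 ± 2.69%.

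Mt3 in smooth muscle cells had 0, 0 and 4.10 CPM at 12 months, against 9.41, 6.76, 4.15 and 4.34 CPM at 3 months. The groups did not overlap, as in 8.93% of the 10449 genes with at least 20 UMIs in these cells. The level rests on 24 UMIs in all. The gene was below the filter on low counts in this class, so it was not tested by age within it. The class-by-age fit above did include it.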
